A study of Mus musculus with 10 samples.

Results

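The immunoglobulin constant region genes are the gene segments that give an antibody its class, and 10 of them were taken by name from the deposited expression table: the 8 heavy chain genes Ighm, Ighd, Ighg3, Ighg1, Ighg2b, Ighg2c, Ighe and Igha, and the light chain genes Igkc and Iglc1. The table held 54532 genes, of which 429 were immunoglobulin genes by their annotated biotype and 13 were constant region genes, so that Iglc2, Iglc3 and Iglc4 were the ones outside the chosen 10. The study sequenced 1 RNA library from the spleen of each of 10 mice with KRN serum-induced arthritis (KSIA), 5 of them DUSP6 KO and 5 WT. DUSP6 is a phosphatase that inactivates the kinase ERK. The DUSP6 KO mice carried the constitutive Dusp6tm1Jmol allele, which the sample labels call a knockdown, and the WT mice were C57BL/6J. Both strains were purchased, and the sources used here do not say that the mice were littermates.

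All 10 mice received 100 µL of serum intraperitoneally on days 0 and 2, and spleens were collected on day 9. Donors of the serum, which was a pool, were arthritic KRN x NOD F1 mice aged 60 days, so neither group was free of arthritogenic serum, and no untreated spleen was analysed here. Mice were 8 to 12 weeks old. Replicates are named by the mouse number in the labels, and values are given in the order DUSP6 KO 26, 21, 73, 01 and 03, then WT 65, 67, 73, 77 and 83.

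A B cell first makes IgM and IgD from a shared primary transcript of the heavy chain locus, in which Ighm and Ighd lie next to the variable segments. During class switch recombination a deletion in the locus brings a downstream constant gene behind the same variable segment, and the cell then makes IgG, IgE or IgA. Plasma cells secrete the product in large amounts, so that a few of them can supply much of the immunoglobulin RNA of a spleen, and KSIA itself is driven by transferred IgG, a protein that adds no RNA to the recipient.

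The 8 heavy chain genes lie on the minus strand of chromosome 12 (GRCm38) in the order in which they are listed above, from Ighm at chr12:113418558-113422730 to Igha at chr12:113254830-113260236. Igkc lies on the plus strand at chr6:70726435-70726966 and Iglc1 on the minus strand at chr16:19061618-19062071. For all 10 genes the coordinates equalled those of GENCODE release M21. The 4 IgG genes resemble each other most, and their coding sequences were 74.1% to 85.7% identical, with Ighg2b and Ighg2c the closest pair and their longest identical run 78 bases. Ighg2c is the C57BL/6 counterpart of the Ighg2a gene of other strains. The exon for the hinge, the flexible stretch that links the antigen-binding arms to the stem of the antibody, tells the 4 IgG genes apart. The hinge exons (exon 2 of each gene, minus strand, cut from the GENCODE M21 transcripts) are shown for that reason, with the in-frame cysteine codons, which provide the disulfide bonds between chains, in capitals.
Ighg3, chr12:113360529-113360576: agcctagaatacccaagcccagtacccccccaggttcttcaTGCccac
Ighg1, chr12:113329844-113329882: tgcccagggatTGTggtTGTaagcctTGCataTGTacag
Ighg2b, chr12:113307261-113307326: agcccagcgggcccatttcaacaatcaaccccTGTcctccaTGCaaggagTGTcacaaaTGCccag
Ighg2c, chr12:113288263-113288325: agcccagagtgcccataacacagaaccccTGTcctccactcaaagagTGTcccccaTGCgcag
The hinge exon held 1 cysteine codon in Ighg3, 4 in Ighg1, 4 in Ighg2b and 3 in Ighg2c, within 39 to 66 bases. The deposited values are per gene, so they do not separate the hinge from the rest of a gene, nor the secreted from the membrane form.

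The libraries held 14990474 to 19822673 reads, recovered from the deposited values, and immunoglobulin genes took 1.54% to 3.31% of them. Dusp6 was at 0.308 to 0.624 FPKM for DUSP6 KO and 16.6 to 23.98 FPKM in WT. All 10 libraries were male by Xist and Ddx3y. Transcripts of exocrine pancreas were found in WT 67, where Cpa1 was at 906 FPKM, and in WT 65, where it was at 13.1 FPKM, against at most 0.0780 FPKM in the other 8. Replicates of a group differed by far more than sampling noise, with a chi-square per gene of 14.7 to 169 over the pairs within groups. Levels are given as FPKM, fragment counts scaled by gene length and library depth, so that levels of different genes are compared per length. In these bulk samples, fewer cells of a type and less RNA per cell cannot be told apart.

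None of the 10 constant region genes passed an adjusted p of 0.05 between DUSP6 KO and WT (limma on log2(FPKM + 0.1), Benjamini-Hochberg over the 21296 genes tested), beside 0.0704% of all genes tested. At an unadjusted p under 0.05 there was 1 of 10, Ighg3, which was lower, beside 5.66% of all genes in either direction, 3.03% lower and 2.62% higher. With limma voom on the recovered reads, 0 of 10 passed the adjusted threshold and 3 had an unadjusted p under 0.05. These 3 were Ighm and Ighg3, which were lower, and Igha, which was higher. Of all 21296 genes tested with voom, 593 were lower and 476 higher at an unadjusted p under 0.05. The unadjusted calls also moved with other settings. Igha had an unadjusted limma p under 0.05 with quantile normalization (0.0158), with rescaling to summed reads (0.0414), and without DUSP6 KO 21, 01 or 03 or WT 83, Ighm had one without WT 65 (0.0390), and no gene had one without DUSP6 KO 26 or WT 73. Ighg1 had one without DUSP6 KO 21 (0.00079). Without both DUSP6 KO 26 and DUSP6 KO 73, Ighg2b was the only one of the 10 genes with one (0.0159, lower). The groups overlapped for all 10 genes, and 1.11% of all genes tested did not overlap. All 10 passed the filter on low values. The log2 fold change was positive for 4 and negative for 6 genes, with a median of -0.28 beside -0.005 over all genes tested. Of all genes tested, 51% had a negative log2 fold change.

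**Figure D1:**
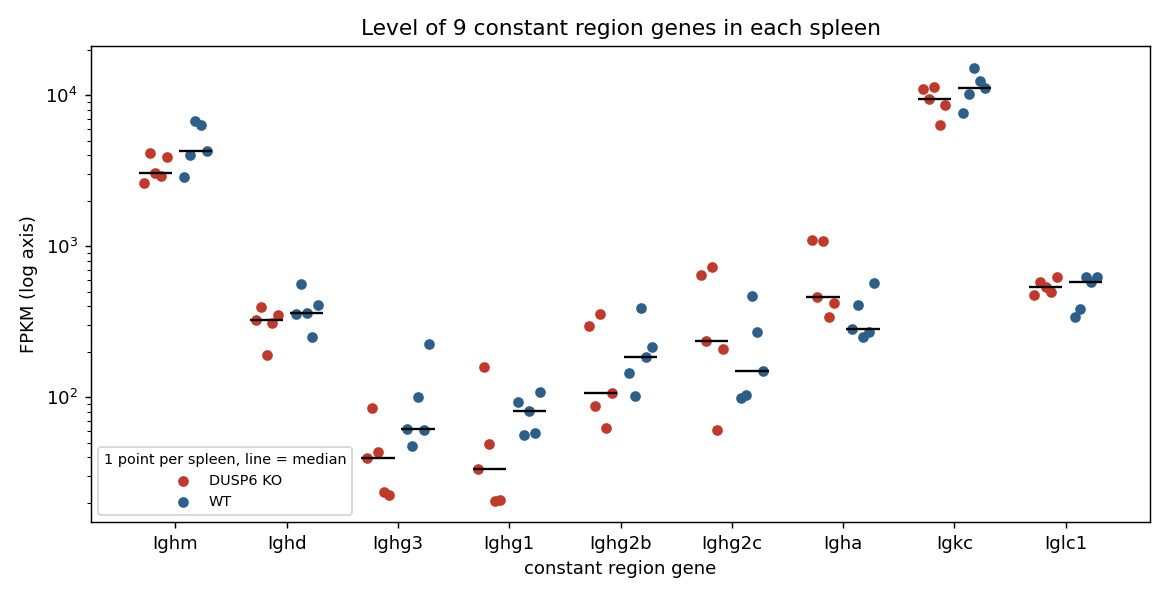
FPKM (log axis) of 9 constant region genes in each of 5 DUSP6 KO and 5 WT spleens, with a line at the group median. Ighe is left out because it was at 0 in a spleen of each group. The groups overlap for every gene, and the DUSP6 KO spleens spread most for Ighg2c, from 61.1 to 732 FPKM.

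Ighm, the constant gene of IgM, was the most abundant heavy chain gene in all 10 spleens and ranked the 6th of all genes by mean FPKM. The DUSP6 KO spleens had 2632, 4140, 3066, 2905 and 3885 FPKM and the WT spleens 2892, 4016, 6771, 6404 and 4273 FPKM. All 5 DUSP6 KO spleens were below the WT median, but WT 65 and WT 67 lay within the DUSP6 KO range, and the highest levels were in WT 73 and WT 77. Its log2 fold change was -0.50 (SE 0.29, limma adjusted p = 0.944). Its 95% confidence interval ran from -1.14 to 0.13.

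Ighd, the constant gene of IgD, is made mainly by mature naive B cells as a membrane receptor. It was at 325, 395, 191, 312 and 350 FPKM for DUSP6 KO and 356, 564, 362, 249 and 409 FPKM in WT. The lowest level was in DUSP6 KO 73 and the highest in WT 67, and 4 of 5 DUSP6 KO spleens were below the WT median. For Ighd the log2 fold change was -0.29 (SE 0.24, limma adjusted p = 0.978). The log2 ratio of Ighd to Ighm was -3.42 ± 0.37 (SD, n = 5) in DUSP6 KO and -3.63 ± 0.80 (n = 5) in WT (two-sided exact permutation test, p = 0.619). WT 73 and WT 77, at -4.23 and -4.69, had the lowest ratios, and DUSP6 KO 73 followed at -4.00.

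Among the switched genes, Ighg3 encodes the heavy chain of IgG3, a subclass made largely against carbohydrate antigens. It was at 39.7, 84.6, 43.4, 23.7 and 22.6 FPKM for DUSP6 KO and 61.3, 47.8, 99.8, 60.4 and 226 FPKM in WT. All DUSP6 KO spleens other than DUSP6 KO 21 were below every WT spleen, and WT 83 was far above the rest. The log2 fold change was -1.13 (SE 0.46, limma adjusted p = 0.822) with an unadjusted p of 0.0327, and the unadjusted p was 0.0086 without DUSP6 KO 21, 0.0512 without DUSP6 KO 26, 0.0776 without DUSP6 KO 01, 0.0791 without DUSP6 KO 03, 0.0639 without WT 73 and 0.0695 without WT 83.

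Ighg1 encodes the heavy chain of IgG1, a subclass to which IL4 directs switching in the mouse. It was at 33.2, 158, 48.8, 20.7 and 20.9 FPKM for DUSP6 KO and 93.3, 56.3, 81.4, 58.2 and 109 FPKM in WT. The 4 DUSP6 KO spleens other than DUSP6 KO 21 were below all WT spleens, while DUSP6 KO 21 was above all of them. The log2 fold change was -0.92 (SE 0.50, limma adjusted p = 0.944), and without DUSP6 KO 21 it was -1.41 (limma unadjusted p = 0.00079, adjusted p = 0.233) against an unadjusted p of 0.0927 with all spleens.

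Ighg2b and Ighg2c encode the heavy chains of the IgG2 subclasses, which activate complement and Fc receptors. Ighg2b was at 296, 87.4, 356, 62.4 and 106 FPKM for DUSP6 KO and 145, 102, 392.3, 183 and 215 FPKM in WT, a log2 fold change of -0.38 (SE 0.52, limma adjusted p = 0.993). Ighg2c was at 642, 234, 732, 61.1 and 210 FPKM for DUSP6 KO and 98.4, 104, 467, 269 and 149 FPKM in WT, a log2 fold change of 0.58 (SE 0.68, limma adjusted p = 0.991). In both genes DUSP6 KO 26 and 73 were high and the other DUSP6 KO spleens were lower, and WT 73 was the highest WT spleen. Without DUSP6 KO 26 and 73, a choice made after seeing the data, the log2 fold change of Ighg2c turned to -0.32 and that of Ighg2b became -1.17, with limma adjusted p = 0.9751 and 0.610. The unadjusted limma p of Ighg2b was then 0.0159.

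Ighe, the constant gene of IgE, was near the limit of detection. It had 28, 194, 18, 0 and 10 reads in DUSP6 KO and 0, 29, 24, 33 and 30 reads in WT. DUSP6 KO 21, with 6.30 FPKM, was above every other spleen, the highest of which was WT 77 at 1.25 FPKM. The count of 0 allows up to 3 reads, which is 0.0874 FPKM at the depth of DUSP6 KO 01 and 0.111 FPKM at that of WT 65. For Ighe the log2 fold change was 0.16 (SE 1.05, limma adjusted p = 0.998), and it was -0.60 without DUSP6 KO 21.

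Igha encodes the heavy chain of IgA, the class of mucosal surfaces, to which TGF-beta directs switching. It was at 1099, 458, 1080, 338 and 423 FPKM for DUSP6 KO and 284, 410, 252, 271 and 573 FPKM in WT. All 5 DUSP6 KO spleens were above the WT median, and DUSP6 KO 26 and 73 were above every other spleen, but WT 67 and WT 83 lay within the DUSP6 KO range. The log2 fold change was 0.82 (SE 0.37, limma adjusted p = 0.893), with a 95% confidence interval from -0.01 to 1.65, and it was 0.25 without DUSP6 KO 26 and 73.

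The light chain gene Igkc, of the kappa chain that most mouse antibodies carry, had the highest level of all 10 genes in every spleen. It was at 10937, 9508, 11318, 6311 and 8651 FPKM for DUSP6 KO and 7667, 10166, 15258, 12501 and 11226 FPKM in WT, a log2 fold change of -0.28 (SE 0.34, limma adjusted p = 0.993). Iglc1, a constant gene of the lambda chain, was at 476, 576, 534, 495 and 625 FPKM for DUSP6 KO and 342, 385, 625, 582 and 627 FPKM in WT, a log2 fold change of 0.12 (SE 0.19, limma adjusted p = 0.993). The lowest Iglc1 levels were in WT 65 and WT 67, the spleens with pancreatic transcripts, whose part in these levels was not tested.

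**Figure D2:**
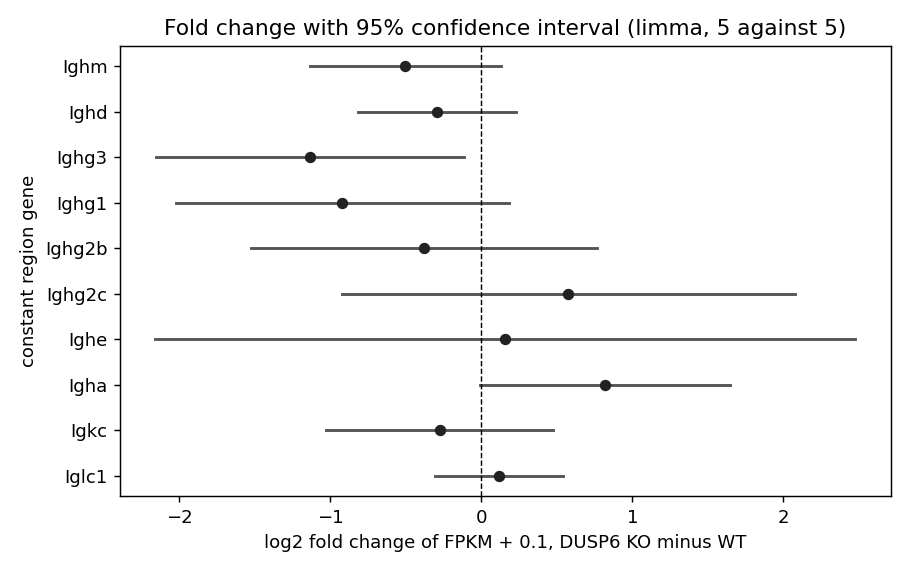
Log2 fold change of FPKM + 0.1 between 5 DUSP6 KO and 5 WT spleens for the 10 constant region genes, with the 95% confidence interval of limma. The interval of Ighg3, from -2.15 to -0.11, lies below 0, and those of the other 9 genes include 0.

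The spread among spleens differed between the genes. Within DUSP6 KO, the SD of log2(FPKM + 0.1) was 0.16 for Iglc1, 0.28 for Ighm and 0.34 for Igkc, but 1.11 for Ighg2b, 1.21 for Ighg1 and 1.45 for Ighg2c. Of the 5175 genes whose mean FPKM was 10 or more, 99.6% spread less than Ighg2c among the DUSP6 KO spleens and 97.6% among the WT spleens. The highest level was 11.99 times the lowest for Ighg2c over the 10 spleens and 10.01 times for Ighg3, beside 2.42 times for Igkc and 1.83 times for Iglc1. Every library held 1754 or more reads of Ighg2c and 943 or more of Ighg3.

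To compare isotypes apart from the amount of immunoglobulin RNA, each heavy chain gene was expressed as its share of the summed FPKM of the 8 heavy chain genes in the same spleen. Ighm took 51.9%, 74.4%, 55.6%, 78.0% and 77.4% in DUSP6 KO and 73.6%, 75.8%, 80.4%, 85.4% and 71.8% in WT (two-sided exact permutation test, p = 0.198). The 6 switched genes together took 41.7% in DUSP6 KO 26 and 41.0% in DUSP6 KO 73, against 11.2% to 21.4% in the other 8 spleens. These 2 spleens also had the highest Hba-a1 levels, at 30365 and 41140 FPKM against 8580 to 20479 FPKM in the other 8. DUSP6 KO 73 had the lowest summed level of 12 B cell genes, at 844 FPKM, while DUSP6 KO 26, at 1471 FPKM, lay within the WT range of 967 to 2135 FPKM. The part of red cell content or B cell content in the isotype shares was not tested.

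Igha was the leading switched gene by FPKM in 9 of 10 spleens, and Ighg2c led in WT 73. The Igha share was 21.7%, 8.24%, 19.6%, 9.08% and 8.43% in DUSP6 KO and 7.23%, 7.73%, 2.99%, 3.61% and 9.62% in WT. All 5 DUSP6 KO spleens were above the WT median, and WT 83 was above DUSP6 KO 21, 01 and 03. The mean was 13.4% ± 6.65 (SD, n = 5) in DUSP6 KO and 6.23% ± 2.83 (n = 5) in WT (two-sided exact permutation test, p = 0.0556, where the smallest possible p is 0.00794). Leaving out each spleen in turn moved this exact p between 0.0159, without WT 83, and 0.111. Without DUSP6 KO 26 and 73, the difference of 7.17 percentage points became 2.35 (exact p = 0.250).

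The length of each gene in the table is that of all its exons joined, which for Igha is 2668 bases, while its secreted transcript has 1100. For Ighg2c these lengths are 1326 and 1111 bases, so the choice of length moves the order of the isotypes. In WT 73, Ighg2b led in place of Ighg2c by reads, with 18121 against 10686, and by secreted length, with a share of 7.89% against 4.67%. With the length of the secreted transcript, an alternative added after seeing the data, the Igha share was 20.6% ± 9.13 (SD, n = 5) in DUSP6 KO and 10.1% ± 4.20 (n = 5) in WT (exact permutation test, p = 0.0397). As a share of heavy chain reads, Igha took 28.4% in DUSP6 KO 26 (95% Wilson interval 28.1% to 28.6%) and 4.13% in WT 73 (4.06% to 4.20%), where the intervals cover counting error only.

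**Figure D3:**
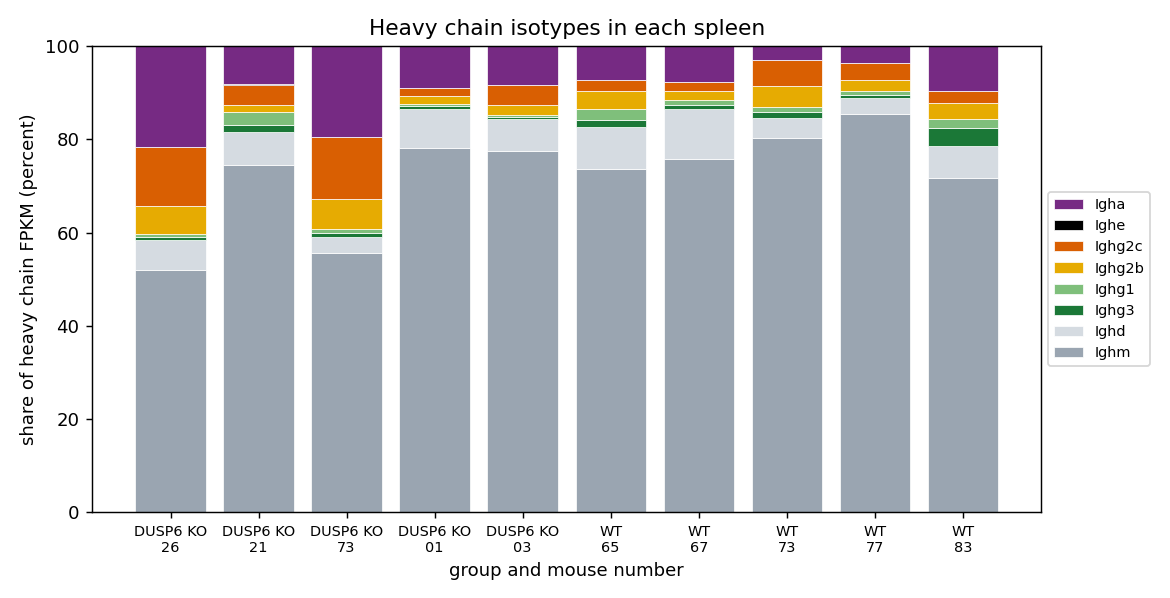
Share of the summed heavy chain FPKM (percent, stacked to 100) taken by each of 8 heavy chain genes, with 1 bar per spleen labelled by group and mouse number. Ighm takes 51.9% and 55.6% in DUSP6 KO 26 and 73 and 71.8% to 85.4% in the other 8 spleens.

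Ighg2c took 12.7%, 4.21%, 13.3%, 1.64% and 4.19% of heavy chain FPKM in DUSP6 KO and 2.50%, 1.96%, 5.55%, 3.59% and 2.49% in WT (two-sided exact permutation test, p = 0.198). The plot of Igha against Ighg2c shares sets DUSP6 KO 26 and 73 apart in both. In Igha, DUSP6 KO 21, 01 and 03 were each above 4 of the 5 WT spleens and below WT 83. In Ighg2c they lay within or below the WT range, with DUSP6 KO 01 the lowest of all. The shares of Ighd, Ighg3, Ighg1, Ighg2b and Ighe gave exact p-values of 0.841, 0.135, 0.563, 0.857 and 0.706. Without DUSP6 KO 21 the exact p was 0.0159 for Ighg3 (a difference of -0.987 percentage points, against -0.815 with all spleens) and 0.0317 for Ighg1 (-0.774 against -0.333), and the other omissions gave exact p-values of at least 0.0952 and 0.429. The Ighg3 difference was -0.277 without WT 83.

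**Figure D4:**
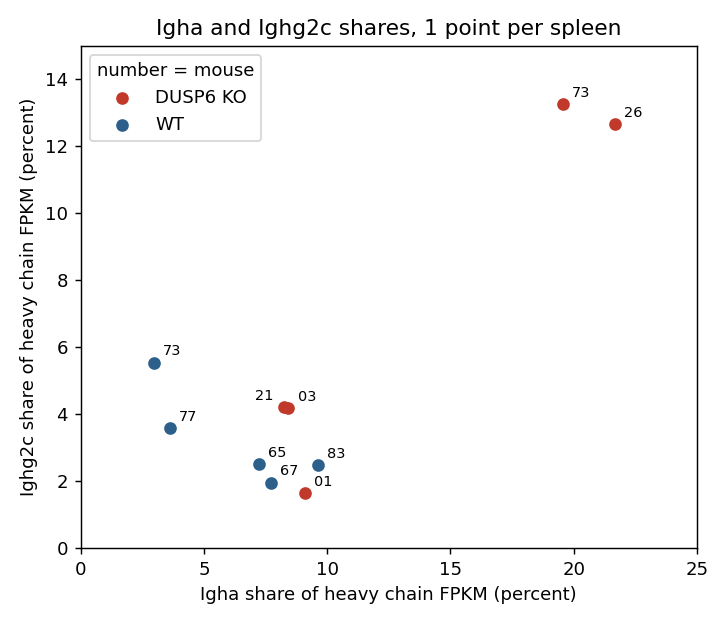
Share of heavy chain FPKM taken by Igha (x axis, percent) and by Ighg2c (y axis, percent), with 1 point per spleen and the mouse number beside it. DUSP6 KO 26 and 73 are above 19% in Igha and above 12% in Ighg2c, and the other 8 spleens are below 10% and below 6%.

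Among the 6 switched genes alone, Ighg2b and Ighg3 took smaller mean shares in DUSP6 KO than in WT, whereas the Ighg2b share of all heavy chain FPKM had a mean of 3.53% ± 2.41 (SD, n = 5) in DUSP6 KO and 3.27% ± 1.08 (n = 5) in WT. Ighg2b made up 14.0%, 8.50%, 15.8%, 12.3% and 13.6% of switched FPKM in DUSP6 KO and 21.3%, 14.2%, 30.3%, 21.8% and 16.9% in WT. Every DUSP6 KO spleen was below 4 of the 5 WT spleens, and WT 67 lay within the DUSP6 KO range. The means were 12.8% ± 2.72 (SD, n = 5) and 20.9% ± 6.14 (n = 5), with a two-sided exact permutation p of 0.0159. Ighg3 made up 1.88%, 8.22%, 1.92%, 4.68% and 2.89% of switched FPKM in DUSP6 KO and 8.98%, 6.63%, 7.71%, 7.17% and 17.8% in WT, with an exact permutation p of 0.0317. DUSP6 KO 21 was the only DUSP6 KO spleen within the WT range. Leaving out DUSP6 KO 26, 73, 01 or 03 or WT 65 or 83, 1 at a time and chosen after seeing the data, gave an exact p of 0.0635, and without WT 83 the difference was -3.71 percentage points in place of -5.74. For Ighg2b the same omissions gave exact p-values of at most 0.0317, and for Igha the exact p was 0.0317 without WT 67. Igha made up 53.1% ± 8.54 (SD, n = 5) and 39.0% ± 14.1 (n = 5), with an exact permutation p of 0.103. Ighg1 made up 5.16% ± 5.76 in DUSP6 KO and 8.65% ± 2.94 in WT, and Ighg2c 24.9% ± 8.05 and 21.7% ± 11.4 (SD, n = 5 each). The exact permutation p was 0.262 for Ighg1, 0.619 for Ighg2c and 0.944 for Ighe. Without DUSP6 KO 21 the Ighg1 difference was -6.03 percentage points (exact p = 0.0159), against -3.49 with all spleens. A share of one gene falls when another rises. The 36 main exact tests of shares, ratios and relative levels, and those of the alternatives and omissions, were not adjusted for their number.

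The lambda share, Iglc1 in percent of Igkc and Iglc1 together, was 4.17%, 5.71%, 4.50%, 7.27% and 6.74% in DUSP6 KO and 4.27%, 3.65%, 3.94%, 4.45% and 5.29% in WT. DUSP6 KO 21, 01 and 03 were above all WT spleens, and DUSP6 KO 26 and 73, the spleens with the largest switched shares, lay within the WT range. The means were 5.68% ± 1.35 (SD, n = 5) and 4.32% ± 0.622 (n = 5), with a two-sided exact permutation p of 0.0794. Leaving out each spleen in turn gave differences of 0.962 percentage points, without DUSP6 KO 01, to 1.74, without DUSP6 KO 26, and exact p-values from 0.0317, without DUSP6 KO 26, to 0.159, without DUSP6 KO 21, 01 or 03. With Iglc2, Iglc3 and Iglc4 counted as lambda, the difference was 1.23 percentage points (exact p = 0.0794), and the coding sequences of Iglc2 and Iglc3 were 95.9% identical, so their reads could be split between them.

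Each gene was also set against the mean log2 level of 12 B cell genes (among them Cd79a and Ms4a1) in the same spleen. Ighd stood 1.97 ± 0.07 above them on the log2 scale in DUSP6 KO and 2.08 ± 0.08 in WT (SD, n = 5 each), the closest tie of any of the 10 genes to these markers. All 5 DUSP6 KO spleens were below the WT median, with an exact permutation p of 0.0476 for a difference of -0.12. Leaving out each spleen in turn gave exact p-values from 0.0159 to 0.0952, and 7 of the 10 omissions ended the call. Relative to 12 plasma cell genes the difference for Ighd was -0.096 (exact p = 0.738), with 3 of 5 DUSP6 KO spleens above the WT median. Igha stood 0.996 higher relative to B cell genes in DUSP6 KO (exact p = 0.0873) and 1.02 higher relative to plasma cell genes (exact p = 0.0556), above the WT median in 5 of 5 DUSP6 KO spleens in each case. The difference relative to B cell genes was 0.621 (exact p = 0.175) without DUSP6 KO 73 and 1.16 (exact p = 0.0476) without WT 83. Iglc1 stood 0.32 higher relative to plasma cell genes (exact p = 0.0635) and 0.29 higher relative to B cell genes (exact p = 0.468), where 4 of 5 DUSP6 KO spleens were below the WT median. Leaving out each spleen in turn gave Iglc1 differences relative to B cell genes from 0.082, without WT 67, to 0.50, without WT 77. For the other members the exact p was at least 0.0794 against either list. Ighg1 relative to B cell genes had a difference of -0.745 (exact p = 0.238) with all spleens. It was -1.15 (exact p = 0.0476) without DUSP6 KO 21 and -0.431 (exact p = 0.476) without DUSP6 KO 03.

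**Figure D5:**
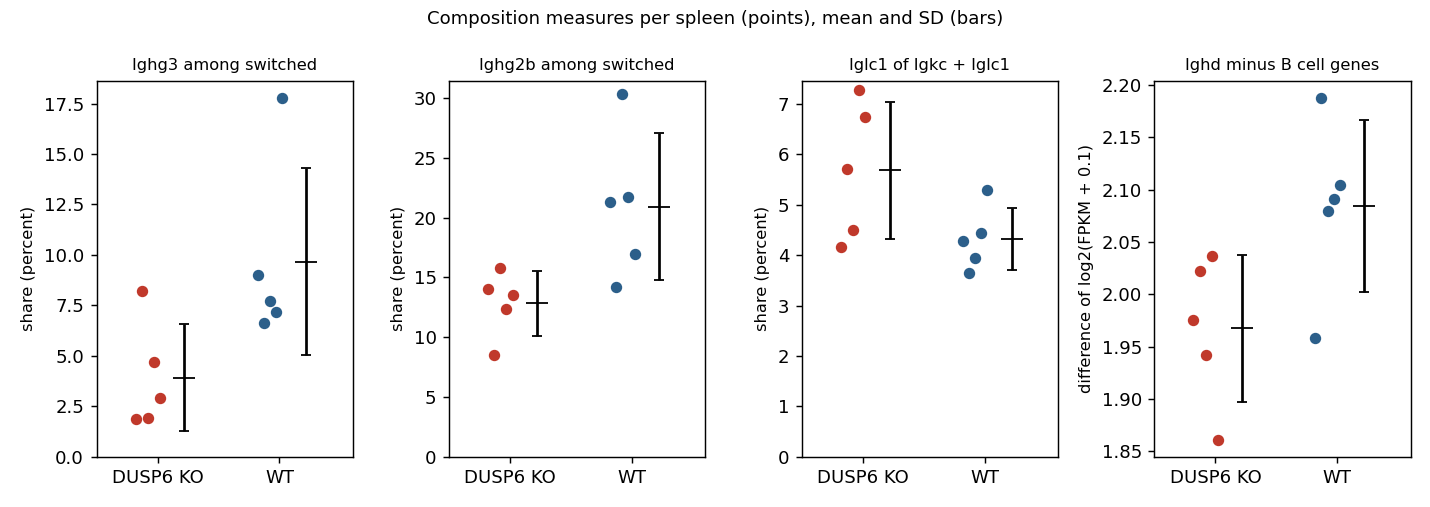
Share of switched FPKM taken by Ighg3 and by Ighg2b (percent), Iglc1 in percent of Igkc and Iglc1, and Ighd minus the mean of 12 B cell genes on the log2(FPKM + 0.1) scale, with 1 point per spleen and bars for the mean and SD of 5. The DUSP6 KO mean is lower for Ighg3, Ighg2b and Ighd and higher for Iglc1, and the groups overlap in all 4 panels.

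Of the 14 lists of genes set beside the constant genes, none held a gene past the adjusted threshold. In the 12 B cell genes every log2 fold change was negative (median -0.18), and 0 of 12 had an unadjusted limma p under 0.05. Over all genes tested, 51% had a negative log2 fold change. Of the 12 plasma cell genes 9 had a negative log2 fold change (median -0.17), and Xbp1, the transcription factor of the secretory programme, Creld2 and Derl3, both of the endoplasmic reticulum, had an unadjusted limma p under 0.05. These 3 were lower, beside 3.03% of all genes tested that were lower at that threshold. Xbp1 averaged 47.4 ± 8.24 FPKM (SD, n = 5) with DUSP6 KO and 67.01 ± 10.3 (n = 5) with WT (limma adjusted p = 0.555). Jchain, which joins IgA and IgM into polymers, was at 341 to 559 FPKM for DUSP6 KO and 276 to 659 in WT.

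Of the class switch recombination genes 19 of 20 were in the table. Among the 19, 15 had a positive and 4 a negative log2 fold change (median 0.05), beside 51% negative over all genes tested. Xrcc5, the Ku80 subunit of the DNA end-joining machinery, averaged 12.6 ± 1.44 FPKM (SD, n = 5) with DUSP6 KO and 10.8 ± 0.735 (n = 5) with WT, the only gene of the list at an unadjusted limma p under 0.05. Of the 10 germinal centre genes 5 were higher and 5 lower (median -0.02), with none at an unadjusted p under 0.05. The share at that threshold was 5.66% over all genes tested.

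Of 11 cytokine genes that direct switching, 8 passed the filter, and Il4 and Il10 were lower at an unadjusted limma p under 0.05. Il4 averaged 0.822 ± 0.249 FPKM (SD, n = 5) with DUSP6 KO and 1.21 ± 0.210 (n = 5) in WT (limma adjusted p = 0.800). Il10 was at 0.174 ± 0.176 FPKM and 0.606 ± 0.392 FPKM (limma adjusted p = 0.842). Its range was 0 to 0.450 FPKM in DUSP6 KO and 0.0893 to 1.02 FPKM in WT, low values near the added 0.1 FPKM. The study reported the other direction for protein, with more IL10 in serum and more IL10-positive spleen cells in DUSP6 KO. Those are other measures than the RNA of whole spleen. Tgfb1 was at 47.1 to 65.6 FPKM for DUSP6 KO and 52.9 to 61.4 FPKM in WT. Of the 12 receptors for these signals 10 had a negative log2 fold change, with Il5ra, the alpha chain of the IL5 receptor, at 2.27 ± 0.532 FPKM and 3.96 ± 1.55 FPKM (limma adjusted p = 0.789). Of the 11 antibody-binding receptors 10 had a negative log2 fold change (median -0.15), with Fcmr, the IgM receptor, at 144 ± 37.7 FPKM and 200 ± 61.6 FPKM (limma adjusted p = 0.944). Over all genes tested, 51% had a negative log2 fold change, and 5.66% had an unadjusted limma p under 0.05.

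Markers of other spleen cells were read beside these values. The 8 T cell genes were split 4 and 4 (median -0.004), and none had an unadjusted limma p under 0.05. Of 9 myeloid genes 6 had a negative log2 fold change (median -0.36). The neutrophil genes S100a9, S100a8 and Elane were lower and the macrophage genes Csf1r and Adgre1 higher at an unadjusted limma p under 0.05, and Csf1r and Adgre1 were the genes of this list whose groups did not overlap. Of all genes tested, 5.66% had an unadjusted limma p under 0.05 and 1.11% did not overlap. S100a9 averaged 422 ± 209 FPKM (SD, n = 5) with DUSP6 KO and 960.3 ± 579.9 (n = 5) with WT (limma adjusted p = 0.753). Csf1r averaged 154 ± 18.6 FPKM (SD, n = 5) with DUSP6 KO and 118 ± 13.3 (n = 5) in WT (limma adjusted p = 0.555). The summed FPKM of 8 erythroid genes ran from 20301 to 104903 for DUSP6 KO and from 24373 to 49662 for WT. Tlx1 and Pdgfrb were higher at an unadjusted limma p under 0.05 among 8 genes of the splenic stroma, and no gene was among 8 erythroid, 9 exocrine pancreas and 4 pre-B cell genes tested, nor among Iglc2, Iglc3 and Iglc4. The part of these cell types in the shares of the constant genes was not tested.

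The genes whose levels followed each constant gene most closely over the 10 spleens were listed as a description, among 13187 genes outside the immunoglobulin loci whose mean FPKM was 1 or more. For Ighd these were Myo1c, Trim7 and Smim14 (Pearson r of log2(FPKM + 0.1) 0.988, 0.986 and 0.983). For Ighm the closest was Txndc5, a disulfide isomerase of the endoplasmic reticulum (r 0.946), and for Ighg2b Ubb and Manf (r 0.937 and 0.936). For Ighg2c it was Irf7, a regulator of interferon genes (r 0.887), for Igha Emc7 (r 0.893), for Igkc Zfp24 (r 0.917), for Iglc1 Arl15 (r 0.924), for Ighg1 Dram1 (r 0.931) and for Ighg3 Dapp1 (r 0.912). All points share their library and its makeup of cells, and each gene is among the 3 with the highest r of 13187.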

How the data were processed

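The authors used Hisat2 to align paired-end reads of poly-A selected RNA and featureCounts to count fragments in genes (1.5.0-p3 in the submitters' processing notes), and deposited FPKM values with a length for each of 54532 genes. The submitters' notes name a human genome build, but the table holds mouse genes, and positions were checked against GENCODE M21 (GRCm38). Whether counting used the strand is not given in the sources used here. FPKM multiplied by length came in equal steps in each library. In 100% of values the result lay within 0.001 of a whole read, or within 0.001 times the count where the count was above 1. Large counts pass this limit in any case, so it checks small counts only. Reads were recovered from the step for the depth (14990474 to 19822673 per library) and for the voom alternative. The FPKM total implied by that step was 0.949 to 1.12 times the summed reads of a library. PCR reads carry no molecular identifiers, so intervals and the limit of 3 reads cover counting error only.

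Genes were compared with limma 3.58.1 (trend; R 4.3.3) on log2(FPKM + 0.1) of the 21296 genes whose mean FPKM was 0.1 or more, which understates changes of low genes. Shares, ratios and relative levels were compared by two-sided exact permutation tests (scipy 1.17.1). There were 36 main tests, and the alternatives and omissions added further ones. The labels describe separate mice, 5 per group. Named genes are the 10 members, up to 3 genes per list by lowest unadjusted p and the genes closest to each member by correlation. Cd79a, Jchain, Tgfb1, Ifng, S100a8, Elane, Hba-a1 and Cpa1 were named with their values known. The members and lists were chosen with earlier results of these data known. The limma script was tested on simulated counts whose extra spread was set alike for all genes. That test does not show its power at the spread of these spleens. Alternatives were other pseudocounts, filters, scalings and trends, voom, reads or log2 in place of FPKM shares, other sets of genes in a share, and leaving out each spleen. Added after seeing the data were rescaling to summed reads, the length of the secreted transcript, leaving out DUSP6 KO 26 and 73, and leaving out each spleen from the shares of switched genes.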

Additional observations from a re-analysis of the deposited data

Results flagged for a closer look

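Of the 40 groups of 5 values examined (levels and shares of the 10 genes), 5 held a spleen whose gap to the nearest other, divided by the range of the group, was above 0.71. Chance alone flags about 1 in 20 groups if values are normally distributed, which was not tested for these levels and shares. The number flagged is therefore not read as an excess. DUSP6 KO 21 was the outlying spleen in 4 of the 5 flagged groups. Its Ighg1 level was 157.5 FPKM with the next at 48.8, and its Ighg1 share of heavy chain FPKM was 2.83% with the next at 0.884%. Its Ighe level was 6.30 FPKM with the next at 0.947, and its Ighe share was 0.113% with the next at 0.0187%. The level and the share of a gene rest on the same reads. In the same spleen Ifng was at 1.23 FPKM, the highest of DUSP6 KO, while Il4, at 0.796 FPKM, was within the range of its group. In WT 83 the Ighg3 share was 3.80% with the next at 1.56%.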

How the results depend on the processing

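Of the 10 fold changes, none passed the adjusted threshold under any alternative run. Genes past the adjusted threshold numbered 8 higher and 7 lower, and 21 and 13 without DUSP6 KO 21; over all omissions of 1 spleen they ranged from 6 to 21 and from 4 to 13. Without DUSP6 KO 26 and 73 there were 16 higher, and with a minimum mean of 1 FPKM there were 4 lower. Without DUSP6 KO 26 and 73, Ighg2c turned to -0.32 and Ighe to -0.042 (log2), and the difference in share turned to 0.649 points for Ighd and to -1.48 for Ighg2b and moved from -9.91 to -0.755 for Ighm and from 3.98 to 0.126 for Ighg2c. Voom turned Ighe to -0.083, and quantile normalization turned Igkc to 0.021. The Ighg2b share difference was -0.10 as log2 and -8.06 points among switched genes, where that of Ighg3 was -5.74. The Igha share passed an exact p of 0.05 with reads (9.40 points), as log2 (1.11) and with the secreted length (10.6 points). Omitting 1 spleen at a time, differences in share ranged from 5.09 to 8.46 points for Igha, -12.5 to -6.02 for Ighm, 2.46 to 5.36 for Ighg2c, -1.25 to 0.579 for Ighd, -0.466 to 0.755 for Ighg2b, -1.03 to -0.277 for Ighg3, -0.774 to -0.0899 for Ighg1, -0.00251 to 0.0258 for Ighe and 0.962 to 1.74 for the lambda share, and the log2 Ighd to Ighm ratio from -0.055 to 0.41. The same omissions gave log2 fold changes of -0.60 to 0.90 for Ighe, -0.016 to 0.20 for Iglc1, -0.71 (without DUSP6 KO 73) to -0.081 (without DUSP6 KO 01) for Ighg2b, 0.22 to 1.11 (the same spleens) for Ighg2c, -0.44 (without WT 77) to -0.12 (without DUSP6 KO 73) for Ighd, -0.41 (without WT 65) to -0.14 (without DUSP6 KO 01) for Igkc, -0.67 to -0.37 for Ighm, -1.42 to -0.77 for Ighg3, -1.41 to -0.68 for Ighg1 and 0.60 to 1.03 for Igha, and levels relative to B cell genes of -0.70 to 0.084 for Ighg2b, -0.38 to 1.06 for Ighe and -0.34 to 0.094 for Igkc. The cause was not tested. No paired analysis was possible because the groups share only the mouse number 73. Depth limits Ighe, which had 0 reads in a spleen of each group.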
